A study of Mus musculus with 3 samples.

Results

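Rmrp, Rpph1, Terc and Vaultrc5 are non-coding RNAs that work as folded parts of RNA-protein particles, and their levels are described here in mouse heart ventricle at 3 stages. They were looked up by gene name in the deposited transcript annotation together with Rn7sk, Rny1 and Rny3. Of these 7 names, 4 had a locus and 3 had none, out of 48626 loci with expression values. The names were selected on measured values, since Rmrp and Rpph1 head the loci by abundance, so the levels below are a description and carry no test. The libraries hold total RNA from the heart ventricles of mice labelled C57BL/6 (C57BL/6 J in the study's methods), with no other genotype or treatment in the labels, at the embryonic stages E10.5 and E13.5, named for the day of gestation, and at 8 weeks of age (Adult). Each stage has 1 library, so no value has a replicate error and no difference has a replicate check. The number and sex of the animals behind a library are not stated in the sources used here. The sexes may differ between the libraries, and sex then cannot be told apart from stage. In whole tissue, fewer cells of a type and less RNA per cell cannot be told apart.

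Structured non-coding RNAs act through their shape and through the proteins they carry. The RNA of RNase MRP, encoded by Rmrp, takes part in cutting the precursor of ribosomal RNA, and the RNA of RNase P, encoded by Rpph1, is the catalytic part of the enzyme that trims the 5′ end of precursor tRNA. These enzymes share most of their proteins. Terc is the RNA of telomerase that holds the template for telomere repeats, the vault RNA of Vaultrc5 belongs to the large vault particle of the cytoplasm, the 7SK RNA of Rn7sk holds the elongation factor P-TEFb inactive, and the Y RNAs of Rny1 and Rny3 bind the Ro60 and La proteins. RNA polymerase III makes all of them except Terc, which is made by RNA polymerase II.

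The sequences of the RNase MRP and RNase P RNAs are shown first, because these RNAs carry most of the values below. Coordinates are those of GRCm38, and each RNA is a locus of 1 exon in the deposited annotation, where it matches a RefSeq non-coding transcript. The Rmrp RNA (chr4:43492785-43493059, minus strand, 275 nt) is given whole. Of the Rpph1 RNA (325 nt, chr14:50807447-50807771, minus strand), the first 300 bases are given (chr14:50807472-50807771), and capitals mark 21 bases, positions 186 to 206, that are followed at once by an identical copy of themselves.
Rmrp: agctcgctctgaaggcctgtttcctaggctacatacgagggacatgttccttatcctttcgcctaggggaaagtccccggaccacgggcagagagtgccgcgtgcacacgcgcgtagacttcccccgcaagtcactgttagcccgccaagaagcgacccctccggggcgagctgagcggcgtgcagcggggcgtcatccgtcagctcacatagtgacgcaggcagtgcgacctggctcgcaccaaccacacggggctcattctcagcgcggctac
Rpph1: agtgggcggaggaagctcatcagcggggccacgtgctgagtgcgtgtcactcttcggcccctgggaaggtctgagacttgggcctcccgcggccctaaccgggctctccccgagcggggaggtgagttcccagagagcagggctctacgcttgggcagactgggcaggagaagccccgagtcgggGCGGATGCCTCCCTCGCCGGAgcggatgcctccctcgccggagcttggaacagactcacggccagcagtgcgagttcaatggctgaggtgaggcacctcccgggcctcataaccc

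The mouse genome also holds shorter copies of the RNase P RNA, of which Rprl3 (RNase P RNA-like 3, chr8:3803125-3803361, minus strand, 237 nt) is shown because it had values of its own. It aligned to positions 2 to 259 of Rpph1 and lacked 1 of the pair of 21-base copies. Of its 237 bases, 222 were identical to Rpph1 (93.7%), and capitals mark the 15 that differ. The longest identical run was 37 bases, and stretches of 100 bases of Rprl3 that do not span the missing copy held 3 to 7 differences from Rpph1.
Rprl3: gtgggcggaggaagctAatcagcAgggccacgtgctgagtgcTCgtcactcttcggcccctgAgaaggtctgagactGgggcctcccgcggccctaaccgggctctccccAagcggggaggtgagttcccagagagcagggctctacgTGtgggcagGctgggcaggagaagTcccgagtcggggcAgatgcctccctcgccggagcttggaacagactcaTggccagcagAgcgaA

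Upstream sequence is shown because Rmrp and Rpph1 each start close to a protein-coding gene that runs the other way. Both stretches are written 5′ to 3′ on the strand of the RNA and end at the base before it, with the 300 bases before Rmrp at chr4:43493060-43493359 and the 148 bases between Rpph1 and Parp2 at chr14:50807772-50807919. Capitals mark TATA where it begins 35 to 20 bases before the start, and the octamer ATTTGCAT on either strand within 250 bases.
Rmrp upstream: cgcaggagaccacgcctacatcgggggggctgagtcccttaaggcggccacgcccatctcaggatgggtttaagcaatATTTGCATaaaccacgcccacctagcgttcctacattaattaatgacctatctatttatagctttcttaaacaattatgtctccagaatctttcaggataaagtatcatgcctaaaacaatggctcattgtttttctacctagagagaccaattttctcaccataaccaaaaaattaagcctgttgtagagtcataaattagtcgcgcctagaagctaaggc
Rpph1 upstream: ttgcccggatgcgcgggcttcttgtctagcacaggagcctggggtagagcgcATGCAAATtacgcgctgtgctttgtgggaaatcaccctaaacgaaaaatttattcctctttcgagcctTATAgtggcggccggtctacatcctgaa
Counted back from the base before the start as -1, TATA began at -28 of Rpph1 and was not found in that window before Rmrp. The octamer began at -96 of Rpph1 and at -222 of Rmrp. Among 32851 RefSeq promoters of GRCm38, 5.08% held TATA in this window and 1.60% held the octamer in 250 bases, so each match is a description of letters that other promoters also hold. RNA polymerase III ends transcription at runs of T, and such a run of at least 4 T began 3 bases after Rmrp and 2 bases after Rpph1, in the 20 bases that follow each RNA.
Rmrp downstream: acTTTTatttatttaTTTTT
Rpph1 downstream: cTTTTTTgatcgagatcctt

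Terc (chr3:96414437-96414833, minus strand, 397 nt) is shown by its ends. Near its 5′ end capitals mark CCTAACCC, which begins at position 2 and is the template complementary to the telomere repeat, and near its 3′ end they mark ACA, the box that closes an H/ACA RNA, with 3 bases after it. In the same windows before its start neither TATA nor the octamer was found, and no run of 4 T lay in the 20 bases after it.
Terc first 100 bases: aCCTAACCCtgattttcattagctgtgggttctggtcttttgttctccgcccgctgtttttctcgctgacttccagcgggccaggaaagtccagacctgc
Terc last 100 bases: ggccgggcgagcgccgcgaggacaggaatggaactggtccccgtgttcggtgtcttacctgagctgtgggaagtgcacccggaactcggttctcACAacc

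The values are FPKM, numbers of sequenced fragments scaled to length and to the size of the library, as the authors deposited them. Whether the length used was the full exon length is not stated in the sources used here. Shares weighted by exon length and fragment numbers below are therefore approximate, above all for short RNAs. The FPKM columns summed to 601115 at E10.5, then 808971 at E13.5 and 443471 in Adult ventricle. Read totals per locus were not among the values used here, and the lowest steps of the values put 1 FPKM over 1 kb at about 13.8, 26.7 and 13.8 fragments. The median of the ventricular list was high in every library, but that of the atrial list was as high in the embryonic libraries. The check by medians is thus clear for the Adult only. The 6 ventricular cardiomyocyte genes had medians of 857, 1880 and 3251 FPKM by stage, and the 4 atrial genes of 1954, 2160 and 1.16. Of the 6, Ryr2 was lowest at 73.1, 18.8 and 281 FPKM. Myl2 was highest at 7790, 12217 and 11568, above each of the 4 atrial genes in every library. Whether each gene marks its chamber alone was not tested. Myl7, Myl4 and Nppa of the atrial list are known to be expressed in embryonic ventricle too, and the remaining gene, Sln, was at 21.3, 7.11 and 0.898 FPKM. Changes are given as differences of log2(FPKM + 1), a scale on which low loci appear to change less than they do, and a locus was counted as higher or lower when this difference was 1 or more, that is 2-fold. The median change of the 12569 mRNA loci at 1 FPKM or more in a library was 0.17 from E10.5 to E13.5, -0.50 from E13.5 to the Adult and -0.40 from E10.5 to the Adult on this scale, and each change below is to be read beside it.

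As a group, the 4 RNAs held a large part of the embryonic FPKM and a small part of the adult FPKM. Their share of the FPKM sum was 15.4% at E10.5, then 22.6% at E13.5 and 3.34% in Adult ventricle. Rmrp and Rpph1 made up nearly all of it. FPKM divides by length, which weights short RNAs heavily. When each locus was weighted by its exon length, which gives a share nearer to that of fragments, the same RNAs held 1.58%, 3.11% and 0.295%. The order of the stages was the same on both scales, with E13.5 highest and the Adult lowest.

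**Figure D1:**
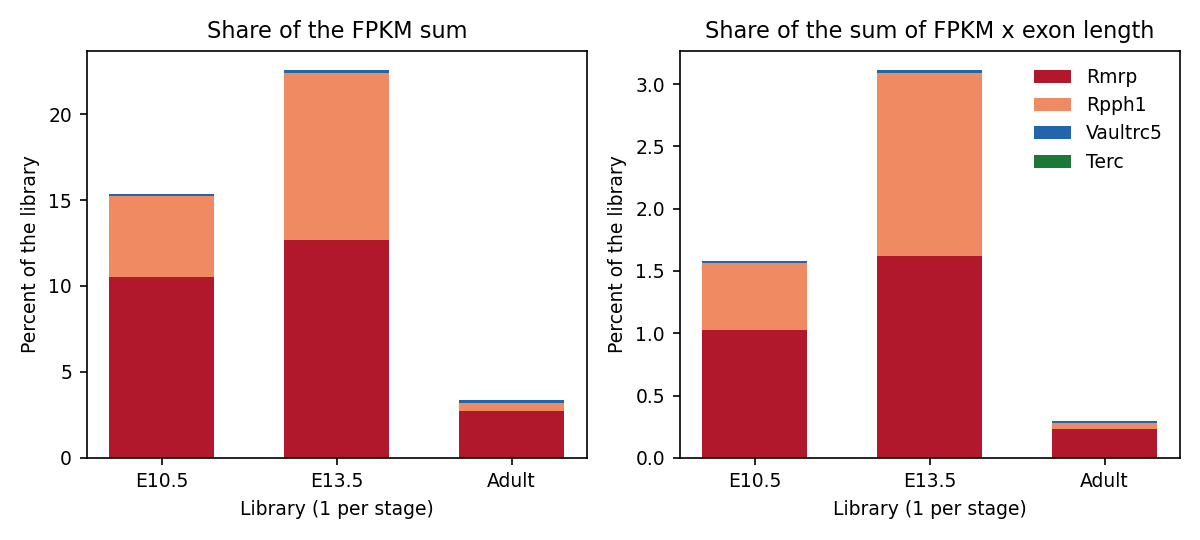
Share of each library held by Rmrp, Rpph1, Vaultrc5 and Terc, stacked, as percent of the FPKM sum (left) and as percent of the sum of FPKM times exon length (right). The stacks reach 15.4%, 22.6% and 3.34% on the left and 1.58%, 3.11% and 0.295% on the right, and the part of Terc is too thin to be seen.

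Rmrp was the most abundant locus of all 3 libraries. It was at 63212 FPKM at E10.5, then 102548 at E13.5 and 12073 in Adult ventricle, which is 10.52%, 12.7% and 2.72% of the FPKM sums. From E10.5 to E13.5 it was 1.62-fold higher, a log2 change of 0.70. The Adult value was 8.49-fold below that of E13.5 (log2 change -3.09) and 5.24-fold below that of E10.5 (-2.39). It was thus high in both embryonic libraries and lower in the Adult, while still the highest locus there.

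Rpph1 varied more than Rmrp between the libraries. Its values were 28310 FPKM at E10.5, then 78812 at E13.5 and 2010 in Adult ventricle, or 4.71%, 9.74% and 0.453% of the FPKM sums. It was the second locus by level in both embryonic libraries and at rank 20 in the Adult. The change was 2.78-fold upward from E10.5 to E13.5 (log2 change 1.48), followed by a value 39.2-fold lower in the Adult (-5.29). Against E10.5 the Adult value was 14.1-fold lower (-3.82).

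The ratio of the RNase MRP RNA to the RNase P RNA within a library does not depend on the scaling between libraries. It was 2.23 at E10.5, then 1.30 at E13.5 and 6.01 in Adult ventricle. The RNAs were thus nearest to each other in level at E13.5 and farthest apart in the Adult.

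The Rprl copies add to the signal of RNase P RNA in 1 library. Rprl3 was at 6980 FPKM at E10.5, 1.16% of that library's sum, and was listed at 0 at E13.5 and in the Adult. Rprl2 was at 0.692 FPKM at E10.5 and listed at 0 in the other libraries, and Rprl1 was listed at 0 in all 3. With so many bases shared with Rpph1, how the authors' counting divided fragments between these loci is uncertain, and an exact 0 can be a failed estimate. Rpph1 and the Rprl loci summed to 35291 FPKM at E10.5, then 78812 at E13.5 and 2010 in Adult ventricle. On the sum, a choice made after the values were seen, E13.5 was 2.23-fold above E10.5 (log2 change 1.16), the Adult was 17.6-fold below E10.5 (-4.13), and the ratio of Rmrp to RNase P RNA at E10.5 was 1.79.

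Terc was far less abundant than the enzyme RNAs. It was at 46.6 FPKM at E10.5, then 36.8 at E13.5 and 0.871 in Adult ventricle, at ranks 1690, 2508 and 23045 of the 48626 loci. The name abundant therefore does not describe Terc, least of all in the Adult. The log2 change was -0.33 between the embryonic stages and -4.34 from E13.5 to the Adult, where FPKM was 42.2-fold lower. If the step given above is 1 fragment, the Adult value rests on about 5 fragments, against about 255 and 389 at E10.5 and E13.5. For 5 fragments the 95% Poisson interval is 1.62 to 11.7. It covers counting error only and not the uncertainty of the step.

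Vaultrc5 differed little between the stages. Its locus (chromosome 18, 36801763 to 36802107, plus strand, 345 nt) was at 810 FPKM at E10.5, then 1079 at E13.5 and 745 in Adult ventricle, with ranks 68, 67 and 58 and shares of 0.135%, 0.133% and 0.168%. GENCODE places the vault RNA itself inside this locus, as 143 nt from 36801866 to 36802008, so the value averages over a longer stretch. An RNA of that length may also be poorly captured, a limit given below for short loci. The log2 changes were 0.41 from E10.5 to E13.5, -0.53 from E13.5 to the Adult and -0.12 from E10.5 to the Adult. The sign of the changes to the Adult depended on the scaling, since median-of-ratios factors over mRNA loci gave 0.26, 0.04 and 0.29 and division by the column sum gave -0.02, 0.33 and 0.32. Within a library, Rmrp was 78.0-fold, 95.1-fold and 16.2-fold above Vaultrc5, and Rpph1 34.9-fold, 73.1-fold and 2.70-fold above it, in the E10.5, E13.5 and Adult libraries.

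**Figure D2:**
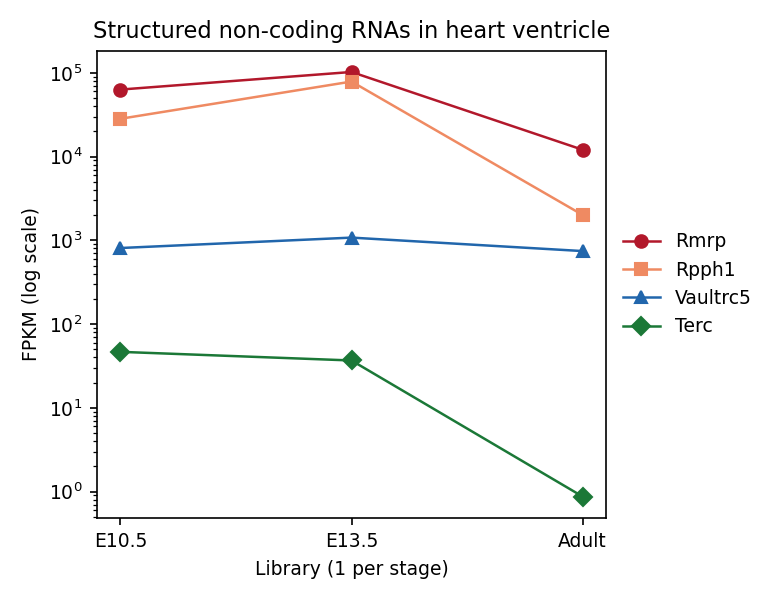
FPKM of Rmrp, Rpph1, Vaultrc5 and Terc in the 3 libraries, on a log axis, with 1 point per library and no error bars because each stage has 1 library. Rmrp and Rpph1 peak at E13.5 and drop to 12073 and 2010 FPKM in the Adult, Terc drops from 36.8 to 0.871, and Vaultrc5 stays between 745 and 1079.

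Counted by the 2-fold threshold, 1 of the 4 RNAs was higher at E13.5 than at E10.5 (Rpph1) and none was lower. Over all 26917 loci at 1 FPKM or more in a library, 3.95% were higher and 17.2% lower in this comparison, and over mRNA loci the shares were 5.89% higher and 4.85% lower. Between E13.5 and the Adult, 3 of the 4 were lower (Rmrp, Rpph1 and Terc) and none was higher. There 29.1% of all loci were higher and 18.6% lower, and the shares of mRNA loci were 13.0% and 32.1%. In the Adult against E10.5 the same 3 RNAs were lower and none was higher, while 25.8% of all loci were higher and 24.9% lower, and the shares of mRNA loci were 14.8% and 27.3%. The changes of these 3 RNAs to the Adult also passed 4-fold. Since the RNAs were chosen for their levels in these libraries, nothing is read from these counts.

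For Rmrp, Rpph1 and Terc, the changes from E13.5 to the Adult were smaller with other scalings and kept their sign. With median-of-ratios factors the log2 change from E13.5 to the Adult was -2.52 for Rmrp, -4.72 for Rpph1 and -3.93 for Terc. On division by the column sum the values were -2.22, -4.43 and -3.97. From E10.5 to the Adult, these scalings gave -1.98 and -1.95 for Rmrp, -3.40 and -3.38 for Rpph1, and -4.42 and -4.73 for Terc, the last slightly larger than the deposited -4.67. The median of all mRNA loci from E13.5 to the Adult moved as well, from -0.50 to -0.03 with median-of-ratios factors and 0.24 on division by the column sum. Rmrp and Rpph1 are themselves a large part of the column sum.

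Rn7sk, Rny1 and Rny3 had no locus of that name, and no exon of the deposited annotation overlapped their GENCODE positions. On GRCm38 these positions are chromosome 9, 78175303 to 78175633 for Rn7sk, chromosome 6, 47788069 to 47788180 for Rny1 and chromosome 6, 47781624 to 47781725 for Rny3. The nearest loci lay 280, 6596 and 151 bases away. A search with the RNA sequences (BLAST, e-value at most 1e-05) gave no locus matching at 80% or more over at least 100 bases for any of the 3. For Rny1 it gave 1 unnamed locus (chromosome 4, 114987254 to 114988355) that was 77.1% identical over 105 bases, at 0.179, 0.819 and 0.602 FPKM. The only unnamed locus found with Rn7sk (chromosome 6, 99575975 to 99576581) was listed at 0 in E10.5 and E13.5 and had 1.26 FPKM in the Adult. No level is therefore given for 7SK or Y RNA. The same search gave no second locus for Rmrp, Terc or Vaultrc5, and for Rpph1 the 3 Rprl loci and short matches in A130040M12Rik and Fam32a.

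Whether a named short locus had values at all went with its length, but the longest range cannot test this. Loci of 1 transcript and 1 exon named Snord, Snora, Scarna, Rnu or Mir were counted. Of those of at most 100 nt, 405 of 405 were listed at 0 in all 3 libraries. So were 64 of 75 of 101 to 150 nt and 0 of 52 of 151 to 500 nt. A match to a reference transcript was not required, so a locus can owe its length to assembled reads. Most named short loci are Mir loci (510 of 589), so length and class cannot be told apart. Rmrp, Rpph1, Terc and the Vaultrc5 locus lie in the last range, while Rny1 and Rny3 would fall in the middle range. The vault RNA itself, at 143 nt in GENCODE, would fall in the middle range too. A low or missing level of an RNA of at most 150 nt is thus not a measure of its abundance in these libraries. This limit holds for the level of Vaultrc5 and its ratios to Rmrp and Rpph1.

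Other small structured RNAs were set beside Rmrp and Rpph1. These are snoRNAs, which guide the modification of ribosomal RNA, scaRNAs, which do the same for spliceosomal RNA, and the minor spliceosomal RNA of Rnu12. Of 79 such loci, 65 were listed at 0 throughout and 14 were at 1 FPKM or more in a library. From E10.5 to E13.5, 5 of the 14 were higher and none lower (median log2 change 0.79), beside 3.95% and 17.2% of all loci tested. From E13.5 to the Adult none was higher and 13 lower (-1.51), beside 29.1% and 18.6%. From E10.5 to the Adult 1 was higher and 4 were lower (-0.62), beside 25.8% and 24.9%. Snora75 and Scarna3a had values at E13.5 alone, so they passed the filter through that library and had to count as higher, then lower. Without them the median was 0.68 from E10.5 to E13.5 and -1.42 from E13.5 to the Adult. No direction is read from the counts of the 14, and these loci are left out of what follows. Among the 12 loci above 0 in all libraries, the change from E13.5 to the Adult ran from -3.61 (Snora78) to 0.24 (Scarna17). Of these, 1 lay at or below the change of Rmrp and none at or below that of Rpph1. The median change of the 12 from E13.5 to the Adult was -1.42, -0.85 with median-of-ratios factors and -0.55 on division by the column sum. For all mRNA loci tested it was -0.50, -0.03 and 0.24. Several of the 12, from Snora64 at 117 nt to Rnu12 at 150 nt, lie in the range of 101 to 150 nt, where most loci were listed at 0. Their levels carry the limit given above.

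The most abundant locus of each class showed these levels. Snord15b, a C/D box snoRNA, was at 7180, 13769 and 5774 FPKM in the E10.5, E13.5 and Adult libraries. Snora64, an H/ACA snoRNA, was at 201, 1515 and 503 FPKM, and its Adult value was thus above that of E10.5. Scarna13 was at 793, 998 and 420 FPKM, and Rnu12 at 1599, 2133 and 474. E13.5 was the highest library for each of them in FPKM, as for Rmrp and Rpph1, but as shares of the FPKM sum Scarna13 (0.132%, 0.123% and 0.0947%) and Rnu12 (0.266%, 0.264% and 0.107%) were highest at E10.5. The 45S precursor of ribosomal RNA, Rn45s, a substrate of the RNase MRP pathway that was named after its values were seen, had another order, with 3675, 946 and 300 FPKM at its longer locus. Its shorter locus was at 448, 341 and 250 FPKM. The study's methods name a total RNA kit and do not say how ribosomal RNA was treated. These values are therefore not read as levels of the precursor. The part of ribosomal RNA in the differences of Rmrp and Rpph1 was not tested.

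**Figure D3:**
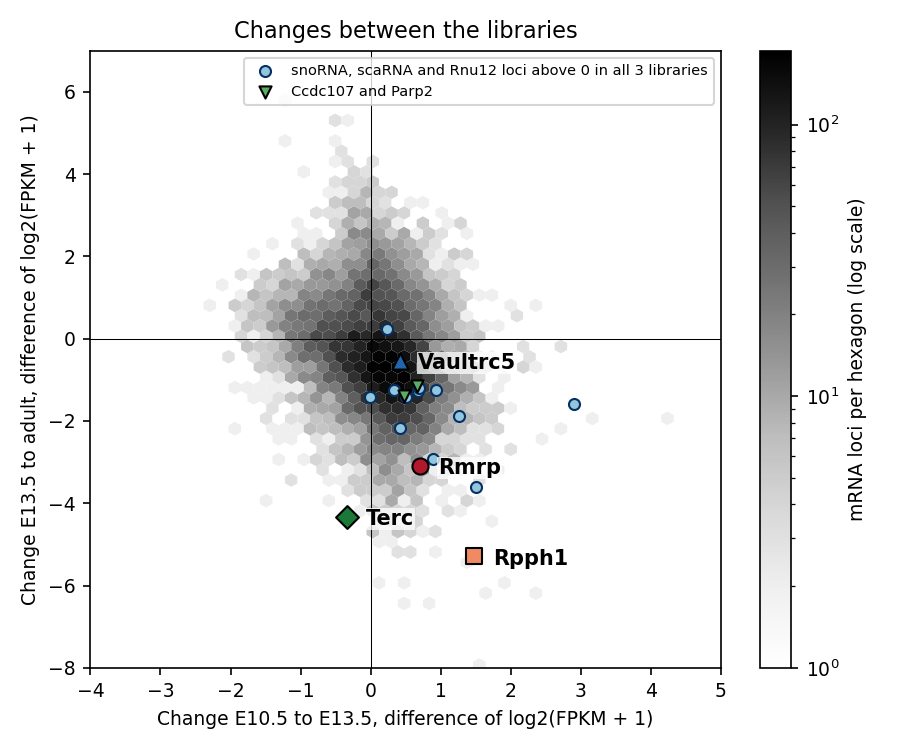
Change from E10.5 to E13.5 (x) against change from E13.5 to the Adult (y), both as differences of log2(FPKM + 1). Grey hexagons count mRNA loci, 26 of which lie outside the axes, circles are the 12 snoRNA, scaRNA and Rnu12 loci above 0 in all libraries, triangles pointing down are Ccdc107 and Parp2, and the large symbols are Rmrp, Rpph1, Terc and Vaultrc5; Rpph1 lies at 1.48 and -5.29, below all 12 circles.

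The neighbouring protein-coding genes were read because both pairs start from a shared stretch of DNA. Ccdc107, 305 bases from Rmrp, was at 16.9, 27.2 and 11.8 FPKM in the E10.5, E13.5 and Adult libraries, with log2 changes of 0.66, -1.14 and, from E10.5 to the Adult, -0.48. Parp2, an enzyme of DNA repair 148 bases from Rpph1, was at 17.99, 25.5 and 9.08 FPKM, with changes of 0.48, -1.39 and -0.91. Both were highest at E13.5 and lowest in the Adult. From E13.5 to the Adult they differed less than the RNA beside them, whose changes were -3.09 for Rmrp and -5.29 for Rpph1. On the other side of Rmrp, Sit1 lay 9075 bases away and was listed at 0 in E10.5 and E13.5 with 0.152 FPKM in the Adult. Zmat2, 2102 bases from Vaultrc5, was at 25.8, 36.0 and 13.3 FPKM, and no protein-coding locus lay within 10000 bases of Terc.

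The mRNA of the proteins that work with these RNAs was examined in 8 lists. Over the 77 loci tested, the median log2 change was 0.22 from E10.5 to E13.5, -0.97 from E13.5 to the Adult and -0.82 from E10.5 to the Adult. From E13.5 to the Adult 2 loci were higher and 38 lower, where 13.0% of all mRNA loci tested were higher and 32.1% lower, and the lists below are to be read beside these shares. That count depended on the scaling, with 18 lower under median-of-ratios factors and 12 on division by the column sum. The share of all mRNA loci was counted in the deposited scaling only. From E10.5 to E13.5 2 were higher and 3 lower, beside 5.89% and 4.85% of all mRNA loci. From E10.5 to the Adult none was higher and 31 lower, beside 14.8% and 27.3%. The counts of the lists below are to be read beside these shares too. The matching medians under median-of-ratios factors were 0.07, -0.51 and -0.43, beside 0.04, -0.03 and -0.06 for all mRNA loci tested. On division by the column sum they were -0.17, -0.26 and -0.51, beside -0.19, 0.24 and -0.04 for all mRNA loci tested. The sign between the embryonic stages thus depended on the scaling, for the partner loci and for all mRNA loci. From E13.5 to the Adult the median of the partner loci lay below that of all mRNA loci in each scaling. The list medians below are to be read beside those of all mRNA loci in the same scaling.

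Of the RNase P and MRP proteins, 10 of 11 had a locus. From E13.5 to the Adult, 6 of the 10 were lower and none higher (median log2 change -1.17), beside 32.1% of all mRNA loci that were lower. The median was -0.63 with median-of-ratios factors and -0.38 on division by the column sum. Further, from E10.5 to E13.5 1 was higher and none lower (0.47). From E10.5 to the Adult 3 were lower and none higher (-0.66). Rpp21 had the highest mean level, at 31.0, 46.9 and 19.0 FPKM in the E10.5, E13.5 and Adult libraries. Pop4, a protein of both enzymes, was at 12.0, 60.5 and 15.8 FPKM and was the 1 member past 2-fold between the embryonic stages. Rpp25 was at 3.88, 5.77 and 0.903 FPKM, the largest drop from E10.5 to the Adult in the list. E13.5 was the highest library for all 10 in the deposited scaling, as for Rpph1 and Rmrp, and for 7 of them under median-of-ratios factors and 5 on division by the column sum. The sizes differed, since the ratio of Rpph1 to Rpp21 in FPKM was 912 at E10.5, then 1681 at E13.5 and 106 in Adult ventricle.

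Of the 10 telomerase genes, 7 were lower and 1 higher in the Adult than at E13.5 (median -1.21), and 7 were lower than at E10.5 with none higher (-1.24). The first median was -0.82 with median-of-ratios factors and -0.64 on division by the column sum. Between the embryonic stages none was higher and 1 lower. Nop10, a small protein of H/ACA particles, had the highest mean at 130, 247 and 88.6 FPKM. Naf1, an assembly factor of the same particles, was at 6.00, 2.11 and 1.10 FPKM. Tep1, a protein of both telomerase and the vault, was at 3.08, 1.65 and 5.12 FPKM and thus highest in the Adult. Tert, the catalytic protein that works with Terc and was named for that role after its values were seen, was at 2.14, 1.73 and 0.325 FPKM, near the lower limit in every library.

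The other RNA partners were fewer. Of the 3 vault proteins, 2 were higher and none lower in the Adult than at E13.5 (median log2 change 1.21), and Parp4, the vault poly(ADP-ribose) polymerase, was at 9.46, 2.79 and 11.3 FPKM. Mvp, the major vault protein, lies in a locus that also joins Prrt2 and 2900092E17Rik, at 29.6, 40.2 and 38.2 FPKM. Of the 7 genes of the 7SK particle and P-TEFb, 3 were lower and none higher in the Adult than at E13.5 (median -0.94, or -0.43 and -0.16 with these other scalings). Larp7, which binds the 3′ end of 7SK, was at 26.1, 38.1 and 9.999 FPKM, Cdk9, the kinase of P-TEFb, at 10.9, 8.30 and 3.28, and Ccnt2, its cyclin partner, at 22.2, 17.6 and 16.4. Ssb, the La protein that binds new RNA polymerase III transcripts, was at 82.8, 137 and 46.5 FPKM, and was the 1 of the 2 Y RNA binding genes that was lower in the Adult than at E13.5. Levels of these proteins' mRNAs were thus available where those of 7SK and Y RNA were not.

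RNA polymerase III, which makes Rmrp, Rpph1 and the vault RNA, was read through 13 subunits and 19 genes of initiation and control. Of the subunits, 5 were lower and none higher in the Adult than at E13.5 (median -0.93), and of the initiation and control genes 6 were lower and none higher (-0.69). Both counts are near the 32.1% of all mRNA loci that were lower. With median-of-ratios factors the medians were -0.43 for the subunits and -0.16 for the other genes, and on division by the column sum -0.16 and 0.12. The sign of the last turned, as did that of all mRNA loci tested, whose medians were -0.03 and 0.24 in these scalings. Both lists lay below these. Polr1d, a subunit shared with RNA polymerase I, had the highest mean at 44.7, 60.3 and 32.1 FPKM. Polr3g and Polr3gl encode alternative forms of the same subunit. Polr3g was at 16.6, 17.2 and 3.09 FPKM and Polr3gl at 8.99, 16.0 and 11.6, so the ratio of Polr3g to Polr3gl went from 1.85 at E10.5 and 1.07 at E13.5 to 0.265 in the Adult. These were the subunits with the largest drop and the largest gain from E10.5 to the Adult. Among the other genes, Maf1, a repressor of RNA polymerase III, was at 24.1, 42.2 and 29.2 FPKM, Snapc1, of the complex that binds small RNA promoters, at 7.05, 8.33 and 9.80, and Gtf3c5, of transcription factor IIIC, at 11.3, 9.34 and 2.45.

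Ribosomal RNA processing, the pathway of RNase MRP, was read through 15 genes, of which Fbl stayed under 1 FPKM. From E13.5 to the Adult, 10 of the 14 tested were lower and none higher (median -1.25), and against E10.5 9 were lower and none higher (-1.17). The first median was -0.73 with median-of-ratios factors and -0.48 on division by the column sum. Npm1, nucleophosmin, had both the highest mean and the largest drop, at 84.7, 106 and 18.5 FPKM. Wdr12 had the smallest drop, at 4.89, 4.38 and 3.42 FPKM.

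**Figure D4:**
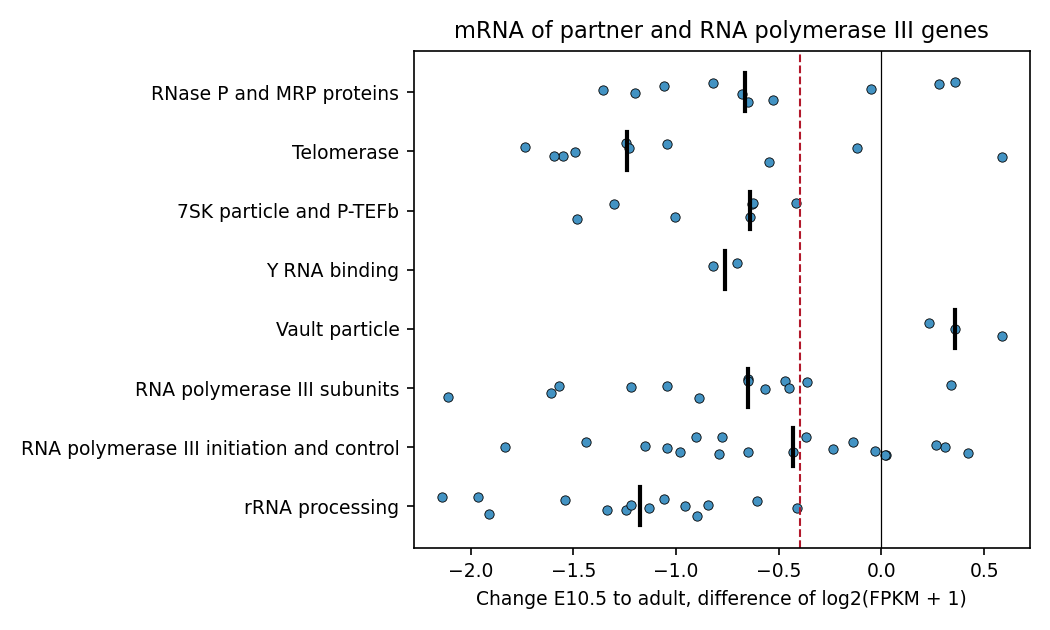
Change from E10.5 to the Adult, as a difference of log2(FPKM + 1), of each tested gene of the 8 lists, with 1 point per gene and a black bar at the median of the list. The dashed line at -0.40 is the median of all mRNA loci tested; the medians of the telomerase and rRNA processing lists lie at -1.24 and -1.17, and the 3 vault genes lie above 0.

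Markers of dividing cells and of other cell types moved in the same comparisons. All 10 cell cycle genes were lower in the Adult than in either embryonic library, and their summed level was 592 FPKM at E10.5, then 701 at E13.5 and 21.6 in Adult ventricle. The 3 primitive erythroid genes summed to 6727, 16305 and 3.05 FPKM, with all 3 lower in the Adult. The higher sum at E13.5 was that of Hbb-y alone (4356 and 15112 FPKM), while Hbb-bh1 (1314 and 366) and Hba-x (1057 and 827) had lower values there. In the same order, the 4 atrial genes summed to 6382, 6766 and 40.9. The 5 macrophage genes with a locus summed to 38.0, 72.3 and 345 FPKM and were all higher in the Adult. Of the 4 endothelial genes 2 were lower at E13.5 than at E10.5 and 2 were higher in the Adult than at E13.5, with sums of 191, 121 and 207 FPKM. Of the 5 fibroblast genes 2 were higher at E13.5, and 2 were then lower and 1 higher in the Adult, with sums of 226, 442 and 499. The part of these differences in those of Rmrp, Rpph1 and Terc was not tested. Stage, library and the sex of the animals cannot be told apart.

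The named loci most like Rmrp and Rpph1 were found by the distance between their log2 changes, over 7850 loci at 10 FPKM or more in a library. For Rmrp these were Ckb, a creatine kinase at 43.2, 69.9 and 7.04 FPKM (distance 0.0564), then H2afz, a histone variant, and Dnajc9, a histone chaperone. For Rpph1 they were Stmn1, a microtubule regulator at 53.9, 164 and 3.52 FPKM (distance 0.149), then 6330403K07Rik and 2810417H13Rik. The likeness rests on 3 libraries and on changes alone, not on levels.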

How the data were processed

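Total RNA of mouse ventricle was sequenced as paired ends after a stranded total RNA kit, with 1 library per stage. The authors deposited FPKM per merged locus and the exons of the merged transcripts. The submitters' processing notes name TopHat, Bowtie and Cufflinks. The study's methods name TopHat2 for mapping to mm10 and assembly by Cufflinks both with UCSC annotation and without it. Release numbers, further options and the handling of multiply mapped fragments are not given in the sources used here. The table had 0 columns of unassigned samples, and 9 loci without transcripts in the annotation were not analysed here.

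Locus names were taken from the deposited annotation, and shares, ranks and differences of log2(FPKM + 1) were computed with Python 3.11.15, numpy 2.4.6 and pandas 2.3.3. Changes were counted at 1 on the log2 scale over loci at 1 FPKM or more in a library. Depth was estimated from the low value of FPKM times kb seen most often, in bins of 0.005, whose peak was broad, so fragment numbers are approximate. Sequences were read from GRCm38 with pysam 0.24.0, promoters came from RefSeq, and BLAST 2.17.0 searched the loci. The counting steps were tested on simulated data. In that test the step of 1 fragment was the most common by design, so it cannot check this for the libraries. Alternatives were scaling factors from median ratios of mRNA loci (1.07, 1.19 and 0.804), division by the column sum, a pseudocount of 0.1, other filters and other denominators of the share.

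The RNAs and gene lists were chosen with earlier results of these data known. Named by rule were, of each list, the gene of highest mean and those with the largest gain and drop from E10.5 to the Adult, the most abundant locus of each short RNA class, coding neighbours within 10000 bp and the 3 loci most like Rmrp and Rpph1. Genes added later are named as such.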

Additional observations from a re-analysis of the deposited data

How the results depend on the processing

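No paired analysis was possible because there is 1 library per stage, and leaving out a replicate was not possible for the same reason. No change of Rmrp, Rpph1 or Terc past 2-fold was reversed by an alternative. The share of the 4 RNAs moved most with its denominator, to 1.58%, 3.11% and 0.295% in the E10.5, E13.5 and Adult libraries when loci were weighted by length, and to 27.1% and 42.1% at E10.5 and E13.5 relative to the mRNA sum. Rpph1 from E10.5 to E13.5 (1.48) did not reach 4-fold. Vaultrc5 moved to -0.015 from E10.5 to E13.5 on division by the column sum, to 0.035 and 0.33 from E13.5 to the Adult and to 0.29 and 0.32 from E10.5 to the Adult under median-of-ratios factors and division by the column sum. Among short RNA loci with hairpins of Mir genes included, counts lower at E13.5 than at E10.5 went from 15 to 2 at a filter of 10 FPKM and 25 with a pseudocount of 0.1. In the Adult against E13.5 those higher went from 32 to 2 and those lower from 19 to 17 at 10 FPKM, which turned the majority from higher to lower, and those lower to 12 with median-of-ratios factors. Against E10.5 those higher went from 20 to 1 and those lower from 12 to 7 at 10 FPKM. Among partner genes, those higher at E13.5 went from 2 to 1 with either scaling and those lower from 3 to 6 on division by the column sum. In the Adult against E13.5 those higher went from 2 to 5 on division by the column sum and those lower from 38 to 18 and 12 with median-of-ratios factors and the column sum, and against E10.5 those higher went from 0 to 1 and those lower from 31 to 16 and 16. The median of all mRNA loci moved with the scaling too, from -0.50 to -0.03 and 0.24 between E13.5 and the Adult. The cause was not tested. The sum of Rpph1 and the Rprl loci was added after seeing the data. Depth limits Terc in the Adult, at about 5 fragments if the step is 1 fragment.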

Other observations

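Loci named for Mir genes, the hairpin precursors of microRNAs, were mostly at low levels, and their direction depended on the filter. Of 510 such loci 457 were listed at 0 in all 3 libraries and 53 were at 1 FPKM or more in a library. In the Adult against E13.5, 32 of the 53 were higher and 6 lower (median log2 change 1.18), beside 29.1% and 18.6% of all loci tested. At E13.5, 5 were higher and 15 lower than at E10.5 (-0.41), beside 3.95% and 17.2% of all loci tested. Among the 7 at 10 FPKM or more in a library, 2 were higher and 4 lower in the Adult against E13.5 (-1.78). Medians over the 53 were 1.18, 0.513 and 2.81 FPKM by stage. The most abundant, Mir703, a locus of 166 nt on chromosome 5 (98475504 to 98475669), was at 84.5, 180 and 3.59 FPKM. The values are those of the locus and not of a mature microRNA.

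The direction of short loci differed between the sets counted, and so did their levels. Of 66 mRNA loci of at most 500 nt, 37 lay below and 6 above their E13.5 value by 2-fold or more in the Adult (median log2 change -1.28). Of all mRNA loci tested, 32.1% were lower and 13.0% higher in this comparison. Over all 3043 tested loci of at most 500 nt, named or not, 1615 were higher and 456 lower (median 1.08). Of all loci tested, whatever their length, 29.1% were higher and 18.6% lower. The short mRNA loci had median levels of 75.2 FPKM at E13.5 and 3.07 in Adult ventricle. For the 3043 loci these medians were 0.181 and 2.14 FPKM. Many of the 3043 thus lay under 1 FPKM at E13.5 and passed the filter through another library. Such a filter favours the library in which a low locus passes, so no direction is read from their short length.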
